A study of Mus musculus with 12 samples.

Results

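The regions described here are the 534 autosomal windows of 500 kb in which the direction of replication forks differed between EpiLCs with catalytically dead KMT2C and KMT2D (dCD) and KMT2C KO control EpiLCs. They were selected on the EpiLC libraries of dCD and control only, by a difference of 5 percentage points or more in Crick percent, out of 4741 windows with 500 or more reads in both libraries (4935 windows in all). Windows past the threshold made up 11.3% of those tested, and that share is fixed by the rule. The naive libraries and both dKO libraries took no part in the choice.

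OK-seq labels Okazaki fragments with a short EdU pulse and sequences them by strand. Forks that move rightwards, from lower to higher coordinates, give Okazaki fragments on the Crick strand and forks that move leftwards give them on the Watson strand, so Crick percent, 100 C/(W+C), estimates the share of rightward forks in a window. A region where Crick percent climbs from left to right is one where forks diverge, as at an initiation zone, and a region where it descends is one where forks converge and terminate. KMT2C and KMT2D (MLL3 and MLL4) are the main enzymes that place monomethylation on lysine 4 of histone H3 at enhancers, and the dCD alleles keep the proteins while abolishing that activity.

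Mouse embryonic stem cells were studied in the naive state (LIF with 2i inhibitors) and as EpiLCs, the formative state reached after LIF and 2i are withdrawn. In each state there was a control (KMT2C KO, with a conditional KMT2D allele left intact), a dKO (the same line with KMT2D also deleted by 4-hydroxytamoxifen through CreER) and a dCD line. The control and dKO cells come from a line of mixed C57BL/6 and 129 background and the dCD cells from R1 cells of 129 background, so all 3 groups lack wild-type KMT2C, and cell line and mutation cannot be told apart in any dCD comparison. Each of the 6 conditions had 2 biological replicates, which the authors summed into 1 library. There was therefore no error between replicates, no test was possible, and every interval given is a 95% interval for counting error only, comparing libraries. OK-seq measures nascent DNA, so the cell states could not be checked against marker expression. Total reads ran from 11407678 to 13601460 in the EpiLC libraries and from 3655095 to 4409068 in the naive libraries, a mean of 2251 to 2685 and 723 to 872 reads per window.

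Of the 534 windows, 258 had a higher Crick percent in dCD EpiLCs (5.44% of windows tested) and 276 a lower one (5.82%). In the 258 windows that were higher, Crick percent was 57.7 (median; range 41.1 to 69.5) in control EpiLCs, 60.0 (42.5 to 71.8) in dKO and 64.1 (46.9 to 75.3) in dCD. The same windows stood at 61.6 (39.3 to 73.8) in the naive control, 62.9 (40.9 to 77.9) in naive dKO and 68.0 (40.5 to 84.2) in naive dCD. In words, these were mostly regions that forks already crossed rightwards, and dCD had the highest naive median of the 3 genotypes. The order of dCD and control in EpiLCs is fixed by the rule. The 276 windows that were lower were the mirror image. Crick percent was 43.4 (31.8 to 65.6), 40.4 (29.5 to 66.2) and 36.4 (25.7 to 58.4) in control, dKO and dCD EpiLCs. In the naive libraries it was 39.6 (24.2 to 60.3), 37.4 (24.9 to 63.1) and 32.7 (17.1 to 68.6). The 3 genotypes overlapped widely in each state, because the windows differ far more from each other than a window differs between libraries.

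**Figure D1:**
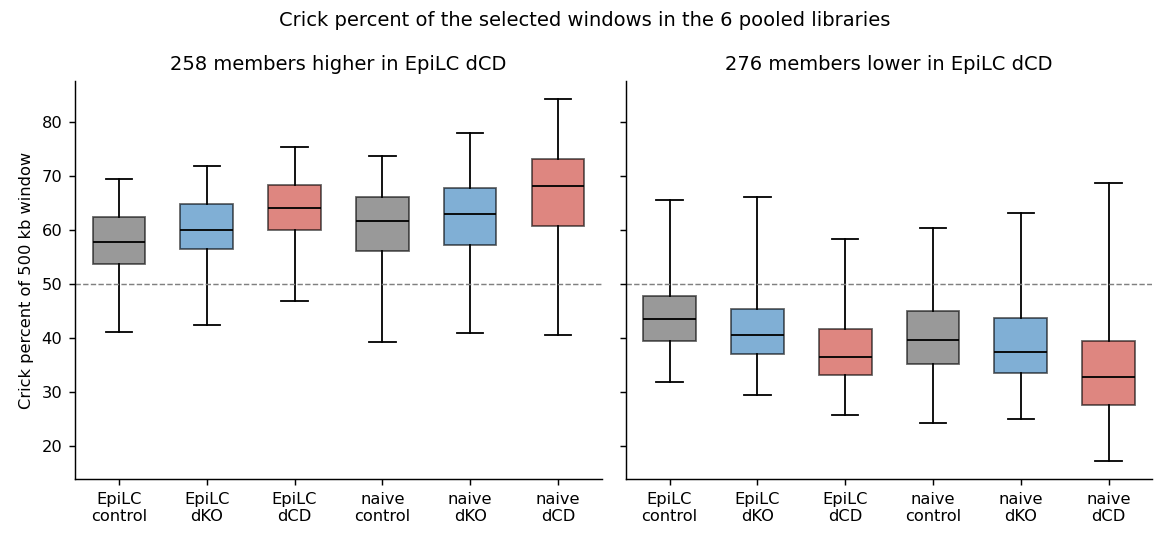
Crick percent (vertical axis, percent) of the selected windows in the 6 pooled libraries, for the 258 windows higher in EpiLC dCD (left) and the 276 lower (right). Boxes span the quartiles with the median as a line, whiskers reach the lowest and highest window, and the dashed line marks 50%. In the naive libraries, which the rule did not use, the dCD boxes lie farthest from 50%, with medians of 68.0 and 32.7 against 61.6 and 39.6 in the control.

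The size of the EpiLC difference, which is what selected the windows, had a median of 6.04 points and reached 14.4. The 38 windows just inside the threshold differed by 5.01 to 5.09 points, and the 45 just outside by 4.902 to 4.999. Most windows stood alone. Merging neighbours of the same sign gave 495 regions, of which 457 were 1 window, 37 were 2 and 1 was 3. The single region of 3 windows, chr3:50000001-51500000, carries Slc7a11 (the cystine and glutamate exchanger), Elf2 (an ETS transcription factor), Naa15 (a subunit of the N-terminal acetyltransferase NatA), Noct and Rab33b. It was lower in dCD EpiLCs by 5.21 points (control 42.3, dCD 37.1) and in naive cells by 7.69 (5.07 to 10.3; control 41.1, dCD 33.4). Every autosome held selected windows, from 7.89% of those on chromosome 16 to 16.9% on chromosome 7.

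To show the sites in letters, promoters near 4 turning points are given. The points were picked after their values were seen from the 10 pairs of selected windows with the largest EpiLC steps between flanks (5 diverging, 5 converging), and the pair with the largest converging step, that of Pmaip1, is not among them. The promoters are printed from RefSeq (GRCm38.p6, the build of the files) from 250 bases before to 50 after the gene start, 5′ to 3′ on the strand of the gene, with CG dinucleotides in capitals.
Dlk1 (chr12:109452573-109452872, plus strand): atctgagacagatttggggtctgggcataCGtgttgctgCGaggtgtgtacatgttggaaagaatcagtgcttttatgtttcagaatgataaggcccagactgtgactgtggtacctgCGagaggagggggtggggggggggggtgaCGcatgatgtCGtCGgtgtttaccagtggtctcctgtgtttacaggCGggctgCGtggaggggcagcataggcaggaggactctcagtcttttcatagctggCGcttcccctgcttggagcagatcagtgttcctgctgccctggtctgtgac
Meg3 (chr12:109540746-109541045, plus strand): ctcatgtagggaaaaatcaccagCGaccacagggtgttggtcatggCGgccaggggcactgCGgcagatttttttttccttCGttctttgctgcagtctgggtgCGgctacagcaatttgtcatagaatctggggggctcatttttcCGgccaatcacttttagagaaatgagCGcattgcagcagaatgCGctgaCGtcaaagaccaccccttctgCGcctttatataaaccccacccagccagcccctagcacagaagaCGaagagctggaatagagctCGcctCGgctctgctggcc
Slc35f5 (chr1:125560345-125560644, plus strand): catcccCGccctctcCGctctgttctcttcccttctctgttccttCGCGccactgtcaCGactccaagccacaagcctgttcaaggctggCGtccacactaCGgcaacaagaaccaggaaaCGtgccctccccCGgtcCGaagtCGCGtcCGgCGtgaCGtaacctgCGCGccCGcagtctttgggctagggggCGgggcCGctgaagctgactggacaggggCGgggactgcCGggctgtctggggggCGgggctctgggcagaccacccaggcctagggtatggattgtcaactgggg
Odam (chr5:87884760-87885059, plus strand): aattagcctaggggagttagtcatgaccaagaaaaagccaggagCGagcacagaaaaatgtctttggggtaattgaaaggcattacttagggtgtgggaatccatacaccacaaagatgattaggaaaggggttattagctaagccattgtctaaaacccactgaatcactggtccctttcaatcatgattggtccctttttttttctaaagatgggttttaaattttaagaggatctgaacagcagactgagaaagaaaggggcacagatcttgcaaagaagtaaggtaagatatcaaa
Serpina1d (chr12:103773584-103773883, minus strand): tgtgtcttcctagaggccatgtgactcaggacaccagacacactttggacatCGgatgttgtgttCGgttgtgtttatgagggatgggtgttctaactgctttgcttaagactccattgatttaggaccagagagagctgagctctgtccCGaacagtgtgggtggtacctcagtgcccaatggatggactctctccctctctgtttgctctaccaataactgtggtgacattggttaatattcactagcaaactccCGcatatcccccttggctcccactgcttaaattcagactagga
The first 3 lie at diverging and the last 2 at converging points. Searched on either strand, CG (its own reverse complement) occurs 23 times in the Slc35f5 promoter, which 21.5% of the 32851 promoters in the table match or exceed. The Meg3 promoter holds 13 (37.9% of promoters hold as many) and that of Dlk1 9 (45.8%). The Serpina1d promoter holds 4 (68.6%) and that of Odam 1 (94.6%). Over all 3046 promoters in the selected windows the median was 5 CG against 7 in all windows tested, and 35.4% against 44.6% held 10 or more.

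At the imprinted Dlk1-Meg3 locus a diverging point was far stronger in the dCD line in both states. Dlk1 is a Notch-ligand-like growth regulator expressed from the paternal allele, and Meg3 a long noncoding RNA expressed from the maternal one. The window left of the point, chr12:109000001-109500000, also holds Begain, a synaptic guanylate kinase-associated protein. Its Crick percent was 51.3, 52.1 and 39.4 in control, dKO and dCD EpiLCs and 51.3, 52.5 and 39.8 in the naive libraries. The window to the right, with Rtl1, a retrotransposon-derived imprinted gene, stood at 55.9, 57.6 and 66.0 in EpiLCs and at 54.7, 58.5 and 66.8 in naive cells. Only the dCD libraries stood apart from the other 2 genotypes on both sides. The point at which the EpiLC change in strand bias was largest, found in steps of 25 kb with 200 kb on each side, lay 16.0 kb before the Meg3 start and 72.2 kb after that of Dlk1. Strand bias, the Crick percent on the right minus that on the left, was 12.9, 14.2 and 50.2 points there in naive control, dKO and dCD. The naive dCD library was higher than the control by 37.2 points (28.4 to 46.1), and naive dKO differed by 1.24 (-8.58 to 11.1). These 2 intervals share the naive control.

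A second diverging point with both flanks selected lay 10.6 kb before the start of Slc35f5, which encodes a solute carrier. The left window, chr1:125000001-125500000, contains Actr3 (a subunit of the actin-nucleating Arp2/3 complex) and had Crick percents of 38.2, 36.2 and 27.7 in control, dKO and dCD EpiLCs. In naive cells the values were 33.3, 31.3 and 29.6, a dCD difference of -3.72 (-8.47 to 1.05). The right window, which holds Slc35f5, Gpr39 (a zinc-sensing receptor) and Lypd1, stood at 55.8, 58.9 and 67.2 in EpiLCs and 59.4, 62.1 and 71.4 in naive cells. The right flank therefore differed in naive dCD by 12.02 points (7.31 to 16.6), beyond counting error, while the left one did not. Strand bias at the point was 15.3, 21.2 and 31.4 in naive control, dKO and dCD. The dCD difference was 16.1 (5.79 to 26.3) and that of dKO 5.82 (-4.69 to 16.3).

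A converging change lay at chr18:66000001-67000000, where the left window was higher and the right one lower in dCD. The left window holds Ccbe1, needed for lymphatic vessel growth, Lman1, a cargo lectin of the secretory pathway, and Pmaip1, the apoptosis inducer NOXA, and the right window Mc4r, the melanocortin receptor of appetite control. In the left window Crick percent was 43.8, 44.0 and 54.2 in control, dKO and dCD EpiLCs and 41.9, 42.1 and 50.7 in naive cells. In the right window the values were 61.9, 59.0 and 48.2 in EpiLCs and 55.3, 58.2 and 48.9 in naive cells. The share of all reads that fell in the right window was lower in dCD, 0.797 times that of the control in EpiLCs and 0.876 times in naive cells, and its part in the difference was not tested. Here the dCD libraries lay nearer 50% than the others, so the diverging pattern of the control was weaker in dCD. At the turning point, 33.5 kb before the Pmaip1 start, strand bias was 42.3, 36.2 and 25.7 points in naive control, dKO and dCD, a dCD difference of -16.6 (-26.3 to -6.82) and a dKO difference of -6.12 (-14.8 to 2.57).

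The casein cluster at chr5:87500001-88500000, which holds Csn1s1, Csn2 and Csn3 for milk proteins and Odam, Enam and Ambn for enamel, showed another converging change. Its right window was at 43.7, 42.4 and 33.7 in control, dKO and dCD EpiLCs and at 40.2, 34.3 and 24.1 in naive cells. The naive dCD difference there was -16.0 (-21.0 to -10.9) and that of naive dKO -5.89 (-10.9 to -0.790), so both mutants were below the control. The left window was higher in dCD EpiLCs by 8.17 points but by 2.75 (-2.46 to 7.94) in naive cells. At the turning point, 10 kb before the Odam start, strand bias was 16.4, 7.81 and -9.53 in naive control, dKO and dCD, a dCD difference of -26.0 (-37.6 to -14.3).

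The other 6 of the 10 pairs followed less evenly. At the pair on chr1:185500001-186500000, which holds Lyplal1, strand bias was -9.65, -6.78 and 16.1 in control, dKO and dCD EpiLCs, values that the choice of the pair and of its turning point used. In the naive libraries it was -2.19, -8.05 and -6.57, a dCD difference of -4.39 (-16.3 to 7.50), and the step between the flanks was -5.35 (-12.3 to 1.58) against 19.7 in EpiLCs. The naive dCD library thus did not show the EpiLC change there beyond counting error. At chr11:7000001-8500000, with Adcy1, Igfbp1 and Igfbp3, the converging step of -20.2 in EpiLCs had a naive value of -2.05 (-8.42 to 4.33), while strand bias at the turning point differed by -16.7 (-28.7 to -4.72) in naive dCD. At chr11:8000001-9500000, with Tns3 and Upp1, the diverging step was 20.7 in EpiLCs and 13.5 (7.22 to 19.8) in naive dCD, but naive strand bias differed by 1.85 (-7.19 to 10.9). The pairs on chromosome 11 share the selected window chr11:8000001-8500000. The pair around the Serpina genes, chr12:103000001-104500000, had steps of -21.0 in EpiLCs and -11.9 (-18.1 to -5.71) in naive dCD. Its left flank differed by 8.59 (4.25 to 12.9) in naive dCD and its right one by -3.31 (-7.71 to 1.13). Naive dCD strand bias could not be measured at that turning point, near Serpina1d, because under 50 reads lay on a side. The last pairs, chr18:84000001-85500000 and chr3:14500001-16000000, had too few naive reads for the step, and naive strand bias differed there by 2.53 (-8.54 to 13.6) and -2.11 (-20.0 to 15.8).

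**Figure D2:**
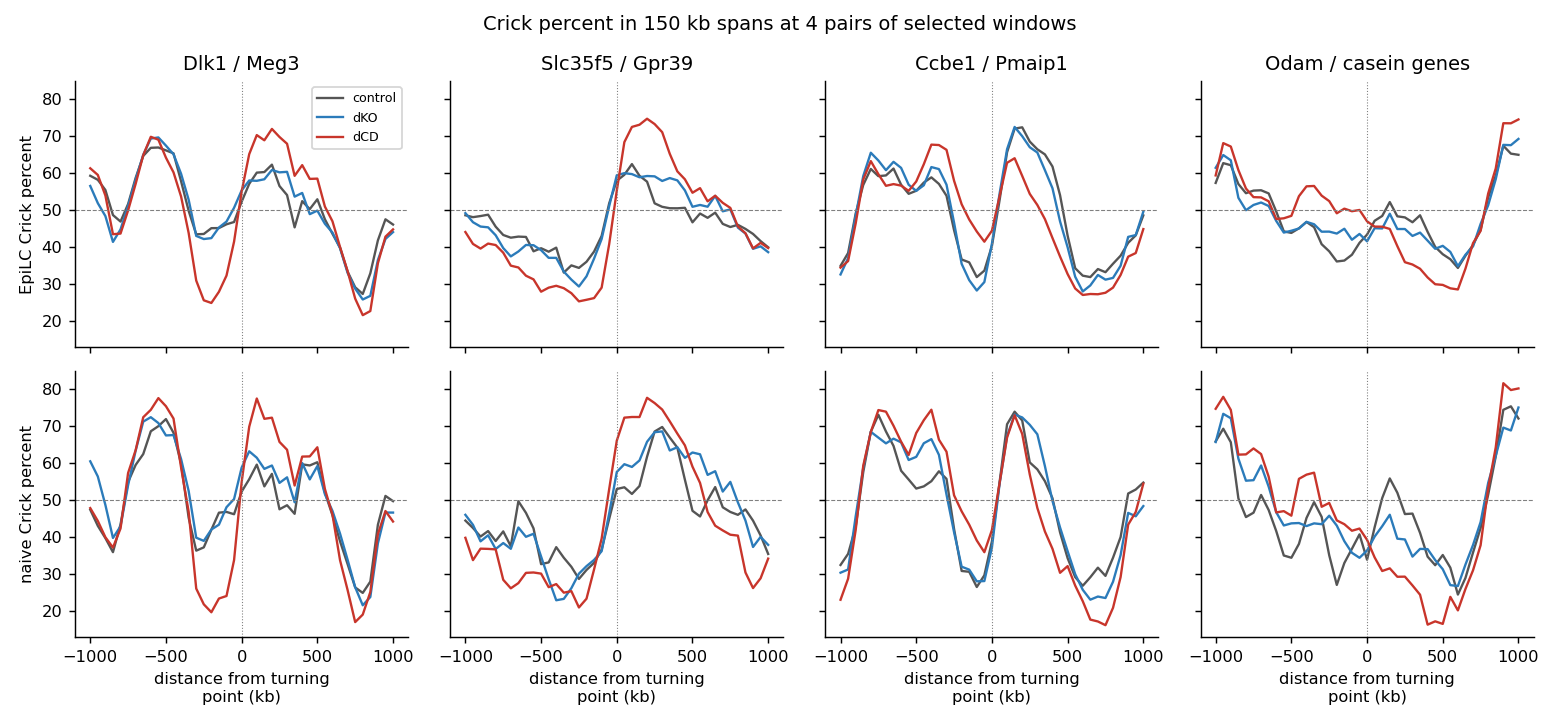
Crick percent (vertical axis, percent) in spans of 150 kb against the distance from the turning point (kb), in EpiLC (top) and naive (bottom) libraries of control, dKO and dCD, at 4 pairs of selected windows. At Dlk1 and Meg3 the dCD line is the lowest from -300 to -50 kb and the highest from 50 to 350 kb in both states, and at the casein genes the naive dCD line descends through 0, where its strand bias was -9.53 points against 16.4 in the control.

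Selected windows of opposite sign lay side by side in 81 pairs, of which 34 touched and 47 had 1 window between them. Some pairs share a window, such as chr11:7000001-8500000 and chr11:8000001-9500000, so the pairs are not independent of each other. Touching was no more frequent than for windows of the same sign (39 pairs): 46.6% of touching selected windows had opposite signs, against 48.8% of all touching windows tested. In 45 pairs the change was diverging, lower on the left and higher on the right. The naive dCD step from left to right had that direction in 38 of the 41 pairs measured, with a median of 11.4 points. In 35 of them its counting interval lay on that side of 0, against 40% of all touching windows whose EpiLC signs diverged. Among the latter 76.4% had the same naive direction and the median step was 4.71 points. In the other 36 pairs the change was converging. The naive dCD step followed in 27 of 29 measured, with a median of -11.7 points and an interval on that side of 0 in 24. Over all touching windows with such signs the figures were 73.6%, -3.95 points and 33%. In naive dKO cells the step followed in 34 of 44 diverging and 24 of 33 converging pairs, with medians of 2.80 and -3.19 points, and the counting interval lay on that side of 0 in 9 and 5 of them. Over all touching windows with such signs the step followed in 61.8% and 61.2%, the medians were 1.36 and -1.59, and the interval lay on that side in 11.9% of either kind. The naive control itself stepped the same way in 43 of the 45 diverging pairs, with a median of 24.4 points (76.4% and 8.11 over all touching windows with such signs), and in 31 of the 36 converging ones, with a median of -18.3 (75.8% and -6.47). The windows used for comparison all touched, whereas 47 of the 81 pairs had 1 window between, so the steps span unlike distances. The steps were not recomputed after the division by amplitude described below. In the selected windows that division lowered the mean naive dCD difference from 5.79 to 0.617 points.

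Measured in naive cells, which the selection did not use, the windows kept their direction in most cases. Of 484 windows with enough naive reads, 444 (91.7%) had the EpiLC sign in naive dCD minus control, against 70.5% of all windows tested. The difference was 5 points or more in the same direction in 305 (63.0%; 29.4% of all windows) and in the opposite direction in 10 (5.22% of all windows). The counting interval lay wholly on the EpiLC side of 0 in 317 (65.5%), against 31.5% of all windows. Turned to the EpiLC sign, the naive dCD difference had a mean of 5.79 points (5.57 to 5.997) and a range from -8.99 to 18.3, while the other windows had a mean of 2.03. The mutant libraries were also more polarised as a whole. With each library divided by its amplitude (described after the polarity of the windows) the same 484 windows had a mean of 0.617 points (0.405 to 0.828). The sign of the EpiLC difference as measured was then shared in 265 (54.8%). Over all windows 55.3% shared the EpiLC sign after division, a different count, so these shares are not directly comparable. Both directions took part: the naive median was 6.20 points in windows that were higher, 228 of 244 with that sign, and -5.94 in those that were lower, 216 of 240. The 236 measured windows with the smallest EpiLC differences, 5 to 6 points, had a naive median of 6.12, and the 15 measured windows at 10 or more had one of 8.59, with all 15 in the EpiLC direction. Across all 4330 windows measured in both states, Pearson's r between the EpiLC and naive dCD differences was 0.584, a description over windows that share libraries.

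The naive dKO library followed less closely in size. Of 508 windows measured, 348 (68.5%) had the EpiLC dCD sign in naive dKO minus control, against 58.9% of all windows. In 71 the difference was 5 points or more that way (9.13% of all windows) and in 15 the other way (4.15%). The counting interval was wholly on that side of 0 in 86 windows (16.9%), against 10.6% of all windows. Turned to the EpiLC dCD sign, the mean was 1.60 points (1.39 to 1.81), against 0.613 in the other windows. Side by side, the selected windows thus moved by a mean of 5.79 points in naive dCD and 1.60 in naive dKO. After the division by amplitude these means were 0.617 and 0.312 (0.105 to 0.519 for dKO), and with windows selected again on the divided values they were 1.57 and 0.516, the latter with an interval that included 0 (-0.0255 to 1.06). The 2 differences share the naive control, and the dKO line also shares its background with it. In EpiLCs dKO minus control had a mean of 2.56 points in the same orientation (range -3.45 to 10.9). That comparison uses the control library that helped to choose the windows, so its direction is not independent of the rule.

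**Figure D3:**
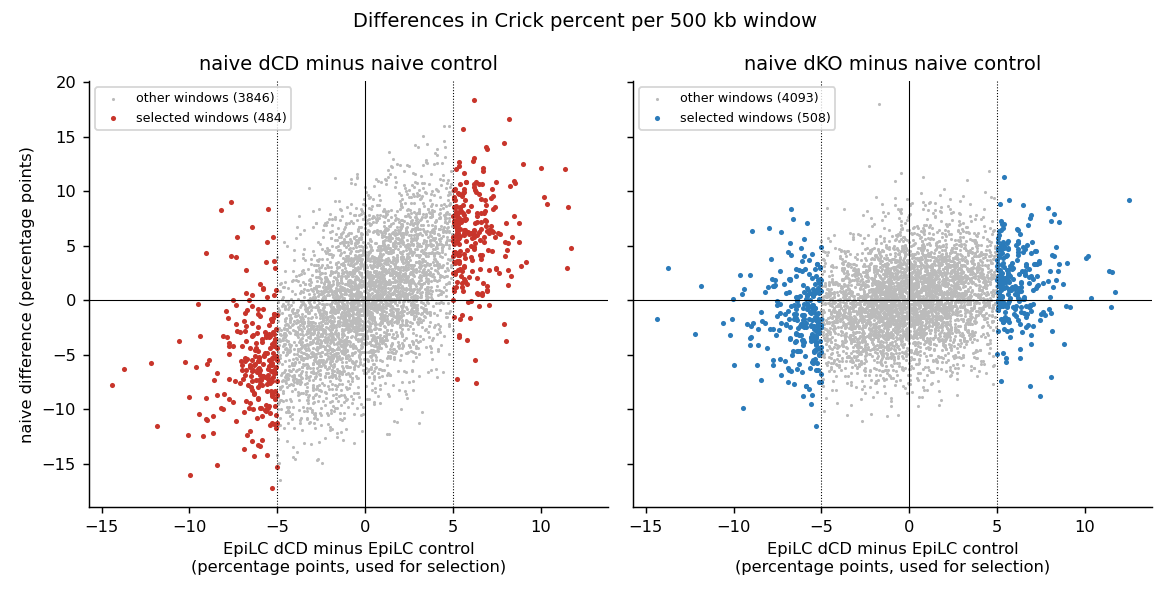
Difference from control in naive dCD (left) and naive dKO (right), in percentage points of Crick percent, against the EpiLC dCD difference that selected the windows. Each point is a 500 kb window, dotted lines mark the threshold of 5 points, and coloured points are the selected windows. In naive dCD 444 of 484 coloured points lie in the quadrants of equal sign, and in naive dKO 348 of 508.

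The windows were chosen without regard to the side of 50% on which the naive control lay, yet most differences pointed away from 50%. As seen from the naive control, 462 of 513 windows measured (90.1%) moved further from 50% in dCD EpiLCs, against 70.9% of all windows. Taking the polarity from the EpiLC dKO library instead gave 487 of 534 (91.2%; 72.9% of all windows). The naive control itself was a median of 11.2 points from 50% in the selected windows and 4.895 in the others. The share of windows selected rose with that distance, from 4.76% of those within 5 points of 50% to 8.99% at 5 to 10, 21.0% at 10 to 15 and 40.2% at 15 or more. Strongly polarised regions, where most forks already moved one way, were thus the ones that passed the threshold most often.

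The minority that moved towards 50% behaved less alike in the naive libraries. With polarity taken from EpiLC dKO, naive dCD had the EpiLC sign in 423 of 448 windows that moved away (80.1% of all such windows) and 21 of 36 that moved towards 50% (42.8%). The turned means were 6.14 and 1.35 points (0.514 to 2.19 for the second). In naive dKO the sign was shared by 325 of 468 (62.9% of all such windows) and 23 of 40 (48%), with means of 1.71 and 0.289 points (-0.495 to 1.07 for the second).

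Across all windows tested, Crick percent was more spread out in the mutants. The SD over windows, with binomial counting variance removed, was 6.43, 7.25 and 8.60 points in control, dKO and dCD EpiLCs and 7.99, 8.98 and 11.8 in the naive libraries. Dividing each library by its amplitude relative to the control, 1.13 (dKO) and 1.34 (dCD) in EpiLCs and 1.12 and 1.47 in naive cells, left 79 of the 534 windows past 5 points, and 455 under it. It put 17 others past the threshold. On that scale naive dCD had the EpiLC sign in 44 of 66 measured windows among the 79 (66.7%; 55.3% of all windows) and naive dKO in 43 of 70 (61.4%; 53.7%). In the other 455 the sign of the EpiLC difference as measured was shared by 221 of 418 in naive dCD (52.9%, with a turned median of 0.278 points) and by 243 of 438 in naive dKO (55.5%, median 0.248). The shares over all windows use the EpiLC sign after division, so they are not a direct comparison for these 455. Of the 79, 41 of 71 pointed away from 50%, and the share over all windows on that scale was not computed. Single loci varied after the division. The Dlk1 window stood at -9.15 points in EpiLCs and -8.34 in naive cells, the Ccbe1 window at 9.31 and 8.45, and the Mc4r window at -13.3 and -6.11. The right window at Slc35f5 stood at 7.10 and 5.01, and the left one was no longer past 5 points in EpiLCs. The right casein window stood at -5.83 in EpiLCs, -7.88 in naive dCD and -4.19 in naive dKO. In other windows with large EpiLC differences little of the naive difference was left or its sign was turned. That of Shisa6 stood at -9.94 in EpiLCs and -0.662 in naive cells, that of Zfp536 at -5.65 and -0.199, that of Prima1 at 9.31 and 2.73, and chr11:8000001-8500000 at -7.72 and 1.43.

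**Figure D4:**
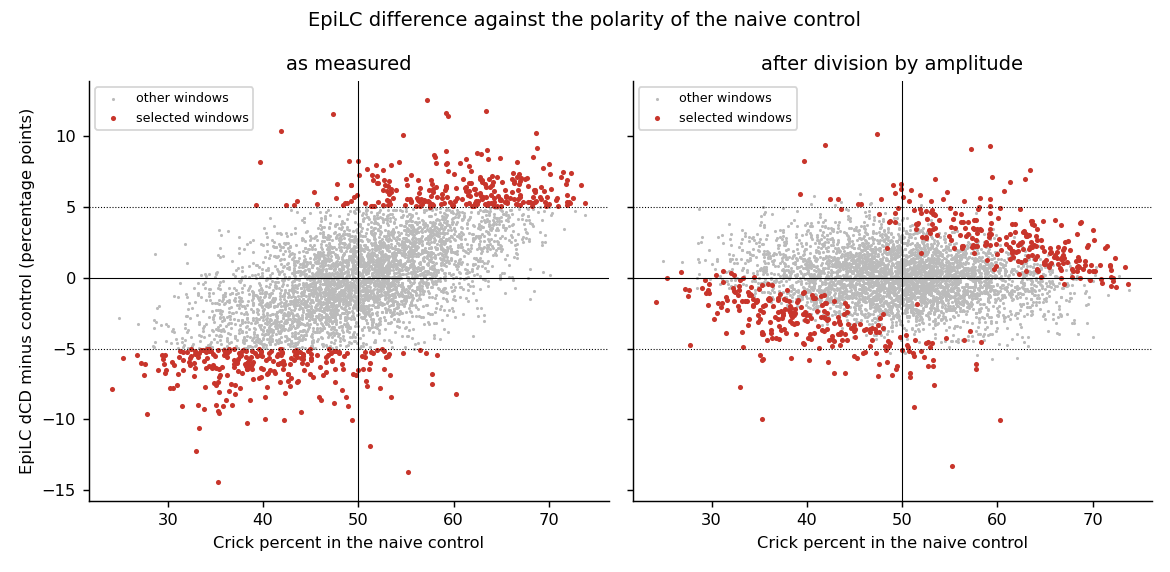
EpiLC dCD minus control (percentage points of Crick percent) against Crick percent in the naive control, as measured (left) and after division by amplitude (right). Each point is a 500 kb window, red points are the 513 selected windows with enough reads in the naive control, and dotted lines mark 5 points. As measured, 462 of the 513 red points differ in the direction away from 50%. After the division 71 red points are past the dotted lines, and 41 of these differ that way. The share of all windows that differ that way after the division was not computed.

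The difference faded with distance from the window. With windows that were lower turned over, so that all point the same way, mean Crick percent in the selected windows was 57.0, 59.5 and 63.4 in control, dKO and dCD EpiLCs and 60.3, 62.0 and 66.1 in the naive libraries, over 483 windows with enough reads in all 6 libraries. At 1000 kb before and after, the naive dCD difference had the other sign, -1.48 (-1.68 to -1.28) and -0.869 (-1.10 to -0.639). At 500 kb on either side it was 0.477 and 1.62. At 2000 kb it was -0.472 and -0.394. At 1000 kb the naive control mean lay slightly below 50%, at 47.5 and 48.6, and the naive dCD mean lay further below on both sides.

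**Figure D5:**
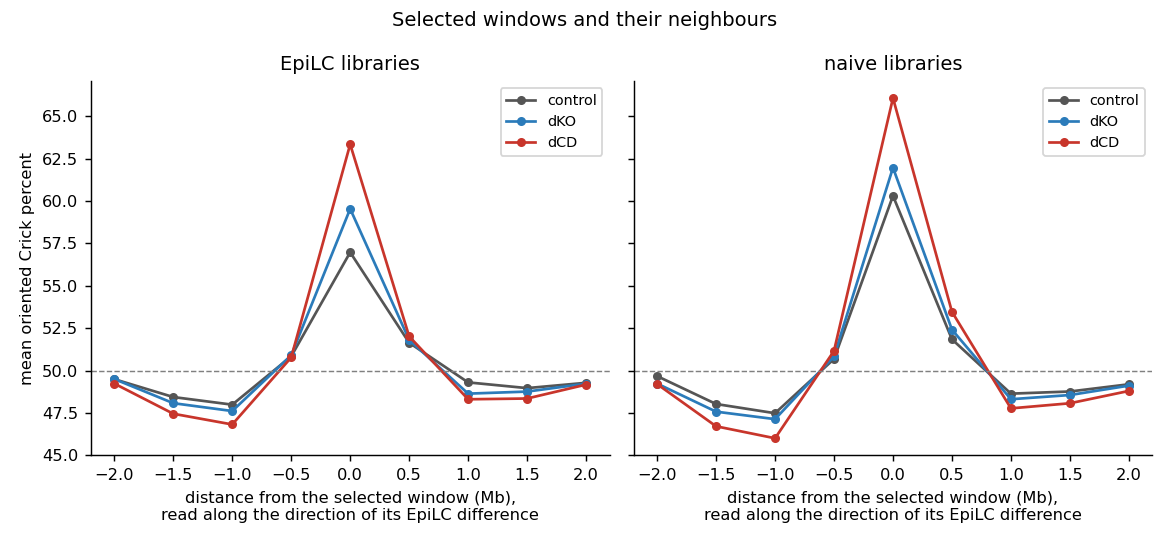
Mean Crick percent (vertical axis, percent) of the selected windows and of the windows up to 2 Mb to either side (horizontal axis, Mb), read along the direction of the EpiLC difference, in EpiLC (left) and naive (right) libraries. At 0 the naive means are 60.3 (control), 62.0 (dKO) and 66.1 (dCD), and 1 Mb away the order is turned, with dCD lowest.

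The windows with the largest EpiLC differences showed how far naive cells and dKO followed. The largest, chr11:66500001-67000000 with the start of Shisa6 (an auxiliary subunit of AMPA receptors), Pirt and Tmem238l, was at 46.9, 37.7 and 32.5 in control, dKO and dCD EpiLCs. In naive cells it was at 35.3, 33.6 and 27.6, a dCD difference of -7.73 (-11.9 to -3.48). The EpiLC control stood higher here than any other library. A window without a protein-coding gene start, chr11:8000001-8500000, had the same form, with 44.6, 34.2 and 32.4 in EpiLCs and 33.0, 30.0 and 27.3 in naive cells. So did chr12:103000001-103500000, with Prima1 (which anchors acetylcholinesterase), Asb2, Ddx24, Otub2 and Ifi27l2b, at 47.5, 55.4 and 59.1 in EpiLCs and 59.3, 61.9 and 67.8 in naive cells. Its converging partner over the Serpina3 cluster of protease inhibitor genes, chr12:104000001-104500000, was 9.40 points lower in dCD EpiLCs and -3.31 (-7.71 to 1.13) in naive dCD.

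Other leading windows varied in how far the naive libraries followed. The window of Hand1 (a heart and trophoblast transcription factor), Galnt10, Fam114a2, Mfap3 and Sap30l, chr11:57500001-58000000, stood at 45.9, 47.0 and 35.8 in EpiLCs and at 49.4, 47.7 and 37.0 in naive cells, a naive dCD difference of -12.4 (-16.7 to -7.98). Its share of reads in dCD EpiLCs was 0.761 times that in the control. At Zfp536, a zinc finger repressor of neuronal differentiation, chr7:37500001-38000000 had 42.2, 37.7 and 32.0 in EpiLCs and 38.3, 35.1 and 32.7 in naive cells, with a naive dCD difference of -5.63 (-9.90 to -1.33). At Lyplal1, chr1:186000001-186500000, the EpiLC difference of 11.5 points had a naive value of 2.96 (-1.75 to 7.66). The gene-free window chr18:85000001-85500000 was 12.5 points higher in dCD EpiLCs, but naive dCD held 440 reads there, below the minimum, and its share of dCD EpiLC reads was 0.640 times that of the control.

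Gene content set the windows apart only slightly. The median number of protein-coding gene starts was 2 in the selected windows and 2 in all windows, with means of 3.70 and 4.30. Windows without any made up 105 of 534 (19.7%; 24.4% of all windows), and those with 10 or more made up 47 (8.80%; 13.2%). Protein-coding genes covered a median of 35.7% of the selected windows and 44.2% of all windows, and GC content was 41.7% in both. The EpiLC difference ran along the strand with more gene sequence in 262 of 464 windows (56.5%; 51.6% of all windows), and the naive control polarity did so in 258 of 449 (57.5%; 59.3%). Inside 1 gene of 300 kb or more lay 17 windows (3.18%; 3.29% of all windows). Among these 17, picked out after their values were seen, a window in Grm8, a glutamate receptor, was lower by 9.44 points in EpiLC dCD, 10.4 in naive dCD and 9.82 in naive dKO, and one in Mecom, a transcription factor, by 6.34, 8.55 and 0.461.

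Base composition tracked the direction. The T minus A content of the window had the sign of the EpiLC difference in 441 of 534 windows (82.6%; 65.2% of all windows), and its median was 1.69% in windows that were higher and -1.30% in those that were lower. Reads of every library also followed the T minus A content of the 1 kb bin, by 1.20 to 1.80 points of Crick percent for each point of T minus A. With that part taken off, 358 windows were selected, and naive dCD had the EpiLC sign in 281 of the 318 with enough naive reads (88.4%; 69.1% of all windows). In 32 windows (5.99%; 4.16% of all windows) the share of reads in dCD of either state was under 0.8 times that in the control or over the inverse of 0.8, and without those 502 remained, of which 425 of 462 measured had the EpiLC sign in naive dCD (92.0%; 70.3% of all windows).

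The gene lists were chosen with earlier results of these data known and describe the windows only. In all, 1977 of the 20393 protein-coding gene starts in windows tested (9.69%) lay in selected windows. None of 17 naive pluripotency factors (such as Esrrb and Klf4) and none of 15 formative factors (such as Otx2, Fgf5 and Dnmt3b) did, nor any of 57 clustered protocadherins or 39 Hox genes, which fill only 3 and 5 windows. Nanog, a core pluripotency factor, lay in the window between a diverging pair of selected windows (chr6:122000001-123500000), 42.5 kb from the turning point. The naive step between those flanks was 17.3 points (10.5 to 24.0) in dCD and 9.06 (2.02 to 16.1) in dKO, while naive strand bias at the point differed by 5.23 (-3.08 to 13.5) and -5.65 (-14.1 to 2.82). Of 22 genes of H3K4 methylation, 1 did: Wdr5, a core subunit shared by all KMT2 complexes, in a window higher by 6.20 points in EpiLC dCD and 6.33 in naive dCD. Of 36 replication origin factors, 3 did. The windows of Mcm5, a subunit of the replicative helicase, and Gins2, part of the same CMG complex, were higher by 5.70 and 6.13 points in EpiLCs and by 7.32 and 6.17 in naive cells. That of Wdhd1, which links the helicase to DNA polymerase alpha, was lower by 6.11 points in EpiLCs and stood at -0.801 in naive dCD. The naive dKO differences were 0.739 (Wdr5), -0.071 (Mcm5), 0.498 (Gins2) and 2.72 (Wdhd1).

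Of 29 giant fragile-site genes, 2 began in selected windows, Dlg2 (5.17 points in EpiLCs, 7.26 in naive dCD, -0.124 in naive dKO) and Fhit (-5.17, -3.08 and 0.935). Among 61 neural adhesion and signalling genes there were 7. The windows of Erbb4, a neuregulin receptor, Gabrb1, a subunit of the GABA receptor, Nlgn1, a synaptic adhesion protein, Sox5 and Nkain2 were lower in EpiLC dCD by 5.14 to 7.76 points. In naive dCD that of Gabrb1 stood at -10.6 and the others between -6.19 (Erbb4) and -3.58 (Nkain2). In naive dKO Gabrb1 stood at -7.82 and Erbb4 at -4.11, but Nlgn1, Nkain2 and Sox5 at 0.085, 0.167 and 1.32. Those of Cadm1, a cell adhesion molecule, and Sema3e, an axon guidance cue, were higher by 6.31 and 7.18 points, with 10.8 and 6.81 in naive dCD and -2.19 and 3.36 in naive dKO. Of the lists, olfactory and vomeronasal receptor genes had the highest share, 251 of 1394 (18%), but these genes are clustered and fill 169 windows, of which 32 were selected. Zinc finger genes were at 43 of 377 (11.4%), and clustered histone genes at 1 of 68.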

How the data were processed

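OK-seq of 12 samples, 2 biological replicates in each of 6 conditions, was analysed. According to the methods the reads were aligned to mm10 with Bowtie2, and the submitters' processing notes also name FastQC, Trim Galore and Picard. The authors deposited 1 pair of strand tracks per condition holding read density as signal (reads per bp) in 1 kb bins, with replicates summed and library size not equalised. Every deposited value was a whole multiple of 0.001, so multiplication by 1000 gave whole reads. Positions were taken as bin ends, because bins made of N then held 0 reads, against 3139 with positions as starts.

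Summed over the libraries, 82 autosomal bins exceeded the median count by a factor of 10 and were dropped, and the rest were added up in fixed 500 kb windows. Crick percent was compared between libraries of one state in windows with 500 or more reads in both. Differences have Newcombe intervals, shares of windows exact binomial ones and means the counting variance of their windows, all at 95%. Reads carry no molecular identifiers, so these cover counting error only, and neighbouring windows are not independent. Gene starts are protein-coding genes of GENCODE M21. Named regions are the 6 of each sign with the largest mean EpiLC difference, the region of 3 windows, and the members of the gene lists. Pairs of neighbouring windows of opposite sign, their turning points and the 17 windows inside long genes were chosen after the values were seen. The windows and gene lists were chosen with earlier results of these data known. Python 3.11.15, numpy 2.4.6, pandas 2.3.3 and scipy 1.17.1 were used, and the steps were tested on simulated data. A window among those chosen for naming is not reported here.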

Additional observations from a re-analysis of the deposited data

Results flagged for a closer look

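In 10 of the 484 selected windows measured, naive dCD differed from control by 5 points or more in the direction opposite to EpiLCs. Each state is 1 pooled library per genotype, and the difference between states was not tested against replicates. Over all windows tested 5.22% had an opposite naive difference of that size, a larger share than among the selected windows.

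The naive dCD difference was 8.99 points (3.80 to 14.1) at chr3:37000001-37500000, a window with Fgf2, a growth factor that sustains the formative state, and Il2 and Il21, where EpiLCs had -7.63. The share of reads in that window was 0.778 times that of the control in dCD EpiLCs and 0.726 times in naive dCD, and its part in the difference was not tested. It was 8.34 at chr4:118000001-118500000 (Ptprf, St3gal3, Kdm4a; EpiLC -5.54) and 8.32 at chr1:185500001-186000000, which has no protein-coding gene start (EpiLC -8.19). It was 6.76 at chr10:14500001-15000000 (Adgrg6, Vta1; EpiLC -6.45), 5.80 at chr9:43500001-44000000 (Nectin1; EpiLC -5.23), 5.79 at chr4:65500001-66000000, inside Astn2 (EpiLC -7.28), and 5.36 at chr16:41500001-42000000, inside Lsamp (EpiLC -5.56).

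In the other 3 the naive value was the negative one. It was -7.55 at chr3:145000001-145500000 (Col24a1, Clca1; EpiLC 6.30), -7.19 at chr14:33000001-33500000 (Mapk8, Wdfy4; EpiLC 5.22) and -5.50 at chr2:65500001-66000000, which holds the sodium channel genes Scn2a and Scn3a (EpiLC 6.29). In all 10 the counting interval of the naive difference did not include 0. After division by amplitude the naive value was 2.21 at chr1:185500001-186000000, 3.54 inside Astn2 and 4.08 at the Adgrg6 window. It was 8.27 at the Fgf2 window, -7.34 at that of Col24a1 and -5.25 at that of Mapk8. The rest of the 10 were no longer past 5 points in EpiLCs on that scale.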

How the results depend on the processing

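No paired analysis was possible because the 2 replicates of each condition are summed in 1 library, and for the same reason no replicate could be left out. Of 120 values recomputed under other settings 70 stayed within the counting interval of the reported value (counts within 1.5 times), 50 moved and 0 reversed. The median number of gene starts was 2 in each of the 8 settings for which it was recomputed (all with 500 kb windows), and selecting without the bin filter, at 300 reads, with subtracted medians, without windows of changed read share or with merged neighbours moved none of the values. Taking polarity from EpiLC dKO, a setting added after seeing the data, gave 91.2%. Keeping the 534 windows and dividing the naive values by amplitude, also added then, gave means of 0.617 (dCD) and 0.312 (dKO) points and shares of 54.8% and 56.3%. Intervals after division keep the counting error as measured. The cause of the changes below was not tested except where the setting itself makes them.

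The number of windows was 1863 at 250 kb, 83 at 1 Mb, 67 at a threshold of 8 points, 988 at 4, 96 after division by amplitude and 828 after thinning to the smallest library. The mean naive dCD difference was 6.59 points with windows shifted by 250 kb, 5.39 at 250 kb, 6.22 at 1 Mb, 7.22 and 5.31 at thresholds of 8 and 4, 1.57 after division by amplitude, 4.98 without the T minus A part, 4.34 after thinning, 5.36 when even bins selected and odd bins measured, and 2.80 when naive cells selected (1500 windows) and EpiLCs were measured. The share with the EpiLC sign was 96.2%, 94.6%, 94.1%, 66.2%, 88.4%, 83.3% and 84.9% at 1 Mb, a threshold of 8, a minimum of 700 reads, after division by amplitude, without the T minus A part, after thinning and with naive selection.

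The mean naive dKO difference was 2.14 with shifted windows, 1.20 at 250 kb, 0.516 (-0.0255 to 1.06) after division by amplitude and 1.18 after thinning, and its share with the EpiLC dCD sign 73.8%, 59.9%, 55.4% and 63.4% there, and 74.4% at 1 Mb. The EpiLC dKO mean was 2.79 with shifted windows, 2.87 at 250 kb, 3.75 and 2.25 at thresholds of 8 and 4, 3.38 after division by amplitude, 2.34 without the T minus A part, 2.91 after thinning, 1.64 in odd bins and 1.16 with naive selection. The share pointing away from 50% was 97.4% at 1 Mb, 85.3% at a threshold of 8, 51.2% after division by amplitude, 82.4% after thinning and 87% in odd bins.

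Depth limits single naive windows: with 723 to 872 reads on average, most counting intervals span several points, and 50 of the 534 windows had too few naive reads for dCD to be compared.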
